A study of Mus musculus with 2 samples.

Results

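Complement and coagulation genes were compared between silica-remodelled spleens (SiO2) and spleens given phosphate-buffered saline (PBS), which served as controls. The members were 39 genes taken by symbol from these 2 protein cascades, out of 20649 named genes on the array. A gene counted as measured if a probe of it stood well above background in either pool, which held for 37 of the 39 and for 16774 genes in all; 36 of the 37 were above background in both pools. Each group was 1 array holding the pooled RNA of 5 spleens from female mice, removed 19 days after injections began, so no test, p-value or spread between animals could be given. Strain, age and dose are not stated in the labels. RNA was prepared with a kit made for blood and its globin message was reduced, both for SiO2 and for PBS. Lymphocyte markers of the spleen were present, with all 6 B cell and all 6 T cell markers measured and none differing 2-fold; their medians were -0.48 and -0.25. The arrays measure whole organ RNA, in which fewer cells of a type and less RNA per cell cannot be told apart.

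Complement is a chain of proteases and pore-forming proteins that tags microbes and dead cells, and it can be started by antibodies through C1q, by sugars through the lectin proteins, or by the slow self-activation of C3 in the alternative pathway. Most of its plasma proteins come from the liver, but macrophages, fibroblasts and other cells make a share locally, with C1q and properdin largely of white blood cell origin. Coagulation runs alongside as a second protease chain, from tissue factor through factors VII, X and V to the cross-linked fibrin clot, and plasmin later dissolves that clot. In the spleen, macrophages of the red pulp and the marginal zone clear complement-coated cells and particles from blood.

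The genes of complement activation were mostly lower in the SiO2 pool. The 2 highest differences belonged to a pore inhibitor, Cd59a, and to 1 clotting factor, F7. Differences are given as log2 signal in SiO2 minus log2 signal in PBS, after each array was set to its own 75th percentile. Of the 37 measured genes, 3 were at least 2-fold higher in SiO2, namely Cd59a, F7 and F13a1, and 5 were at least 2-fold lower, namely C2, Vsig4, Cfb, C1ra and C6. This is 8.11% higher, against 6.62% of all 16774 genes, and 13.5% lower, against 3.69% of all. Members were chosen with earlier results of these data known, so the contrasts with all genes are descriptive and cannot show an excess. Together 8 of 37 differed at least 2-fold, against 10.3% of all genes, and the other 29 were within 2-fold. The median over the 37 was -0.21, against 0.03 over all genes. Of the 37 genes, 7 lay below the 5th percentile of all genes, at -0.88, and 2 lay above the 95th percentile, at 1.14. The direction depends on the scale: with the B and T cell markers set to a median of 0, which adds 0.31 to every difference, 6 members were at least 2-fold higher and 1 was lower, against 2090 higher and 301 lower over all genes, where the 75th percentile gave 1110 and 619.

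Roles within the cascades had different medians, which are set side by side here without a test between them. The genes that start complement had a median of -0.86 (9 measured), C3 with the alternative pathway -0.77 (4 measured) and the terminal genes -0.40 (2 measured). Taken as 1 group of 15 measured activation and attack proteins, 12 were below 0, 4 of them at least 2-fold lower, and none was at least 2-fold higher, with a median of -0.83. Of all genes, 47.7% were below 0, 3.69% at least 2-fold lower and 6.62% at least 2-fold higher. At the last share, few of 15 genes would be counted higher. Complement regulators had a median of 0.01 (6 measured) and complement receptors 0.59 (5 measured). Clotting factors had a median of 0.49 (5 measured), clotting inhibitors -0.64 (3 measured) and fibrinolysis genes -0.16 (3 measured). The medians of roles with 2 or 3 genes rest on few values and are given as such.

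**Figure D1:**
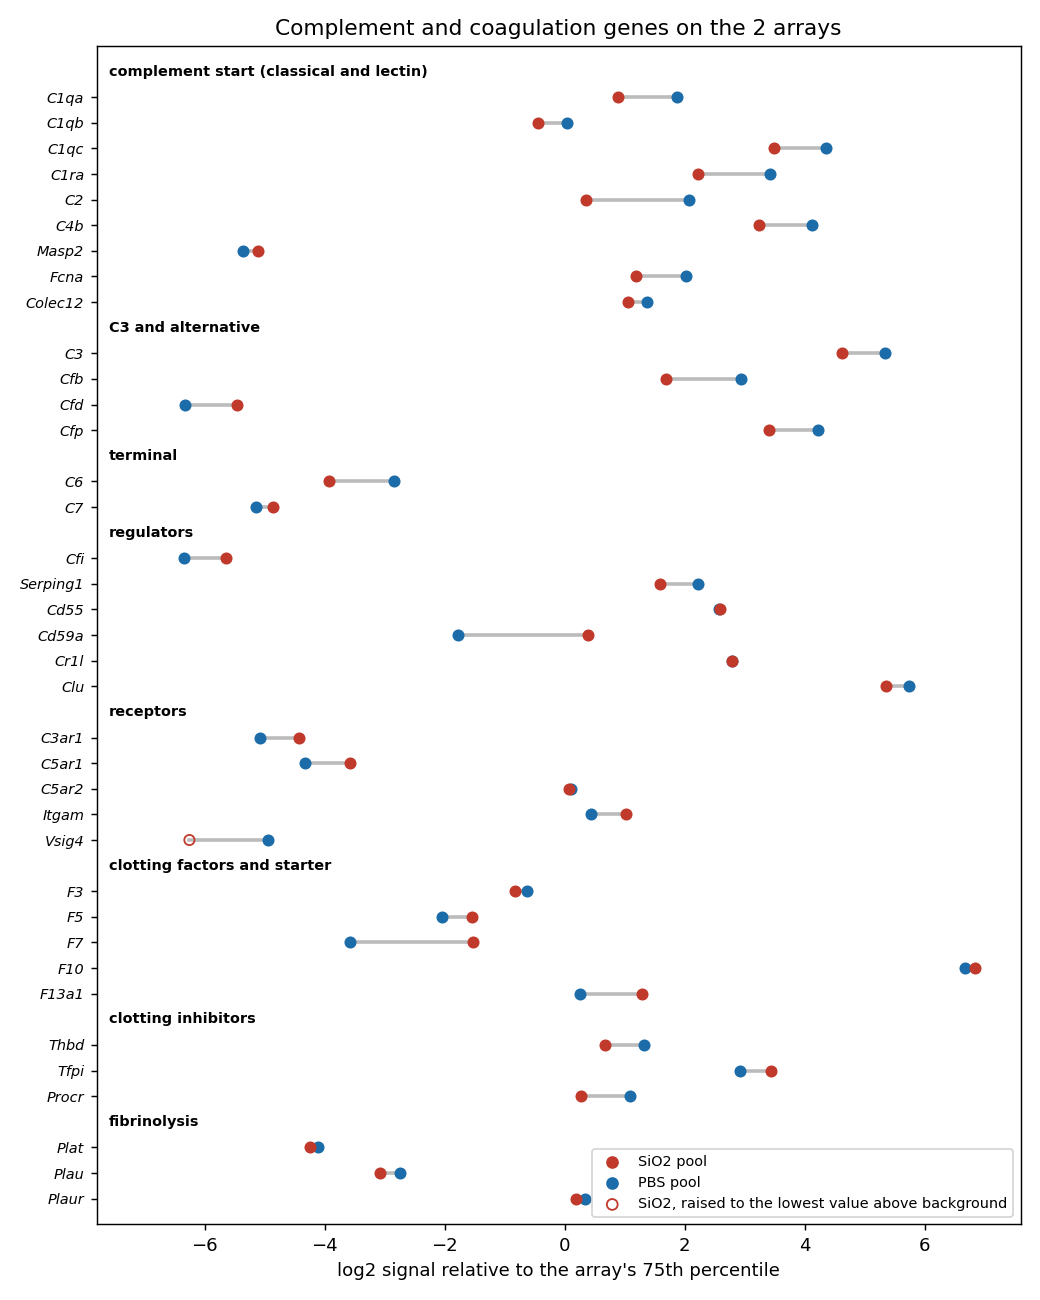
Log2 signal of each measured gene, scaled by the array's own 75th percentile, for the SiO2 pool (red) and the PBS pool (blue), with 1 array each and genes grouped by role. Levels of different genes come from different probes and are not comparable with each other; 8 of 9 genes of the complement start lie to the left in SiO2, Cd59a and F7 lie to the right, and the open circle marks Vsig4, not above background in SiO2.

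Promoter windows of 4 genes that differed at least 2-fold, were above background on both arrays and had 1 listed window are shown so that the regions ahead of genes lower and higher in SiO2 can be read side by side. They were taken from RefSeq on build GRCm38.p6, run from 250 bases before to 50 after the annotated start, and are written 5′ to 3′ along the gene's strand. Capitals mark every match, on either strand, to 5 motifs that were searched by their letters: GAAA, any 2 bases and GAAA for the interferon-stimulated response element, TTCNNNGAA for the gamma-activated site, GGG, any 2 bases and TTTCC for NF-kB, AGATAA for GATA factors and TTGCNNAA for C/EBP factors. C1ra and C6 were lower in SiO2, Cd59a and F7 higher.
C1ra (chr6:124512371-124512670, plus strand): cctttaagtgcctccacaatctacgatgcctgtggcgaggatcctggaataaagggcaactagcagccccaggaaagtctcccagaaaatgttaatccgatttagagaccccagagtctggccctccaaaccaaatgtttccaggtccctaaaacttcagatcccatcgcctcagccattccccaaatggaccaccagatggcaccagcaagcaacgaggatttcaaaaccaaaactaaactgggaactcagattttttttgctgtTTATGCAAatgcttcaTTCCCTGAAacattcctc
C6 (chr15:4726960-4727259, plus strand): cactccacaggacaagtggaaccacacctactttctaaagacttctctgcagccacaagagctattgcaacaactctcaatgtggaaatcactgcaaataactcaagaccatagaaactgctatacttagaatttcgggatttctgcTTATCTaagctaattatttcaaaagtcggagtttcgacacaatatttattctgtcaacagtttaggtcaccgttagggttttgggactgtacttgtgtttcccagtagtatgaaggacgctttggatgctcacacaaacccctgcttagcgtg
Cd59a (chr2:104095551-104095850, plus strand): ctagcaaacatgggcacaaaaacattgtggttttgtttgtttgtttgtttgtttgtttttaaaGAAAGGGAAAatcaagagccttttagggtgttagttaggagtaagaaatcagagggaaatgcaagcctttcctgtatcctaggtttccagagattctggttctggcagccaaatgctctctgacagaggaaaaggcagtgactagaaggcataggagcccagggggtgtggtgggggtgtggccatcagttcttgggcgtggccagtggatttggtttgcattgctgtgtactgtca
F7 (chr8:13025784-13026083, plus strand): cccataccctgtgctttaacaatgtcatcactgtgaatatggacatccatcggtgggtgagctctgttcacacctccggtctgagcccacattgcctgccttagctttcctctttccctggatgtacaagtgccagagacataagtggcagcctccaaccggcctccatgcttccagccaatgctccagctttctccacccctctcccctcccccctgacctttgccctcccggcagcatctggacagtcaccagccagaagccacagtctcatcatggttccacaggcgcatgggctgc

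The C1ra window held a gamma-activated site match that began 33 bases after the start and a C/EBP match that began 17 bases after it. The Cd59a window held an interferon element match from position -187, the C6 window a GATA match from position -103, and the F7 window none of the 5. Windows were listed for 27 of the 39 genes, 30 windows in all, because some genes have several starts; C1qa, C2, C4b, Masp1, Colec12, Cfb, Cfi, Serping1, Clu, Thbd, Plat and Plau had no entry. Of the 30 windows, 2 (6.67%) held the interferon element letters, against 3.44% of 32851 windows of the same length for all genes. The gamma-activated site was in 4 (13.3%), against 8.30% of all, the C/EBP letters in 5 (16.7%), against 10.8%, the GATA letters in 3, against 11.2%, and the NF-kB letters in 1 (3.33%), against 1.63%. The matches mark letters only, and no overlap between motifs occurred in the 4 windows shown.

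C1q, the sensor that binds antibody-coated surfaces and dying cells, is built from 3 chains encoded by separate genes, and all were lower in SiO2. Before scaling, C1qa had a signal of 867 in SiO2 and 2447 in PBS, C1qb 346 in SiO2 and 691 in PBS, and C1qc 5268 in SiO2 and 13644 in PBS. The scaled differences were -0.98 for C1qa, -0.86 for C1qc and -0.48 for C1qb, all within 2-fold. For genes lower in SiO2 the unscaled gap is wider than the scaled one, since the 75th percentile itself was a signal of 469 on the SiO2 array and 669.5 on the PBS array.

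C2 and C1ra were the members of the complement start past 2-fold. C2, which supplies the protease part of the classical and lectin convertase, had a signal of 601 in SiO2 and 2816 in PBS and was 3.28-fold lower after scaling (log2 difference -1.72). C1ra, a protease of the C1 complex, had 2190.3 in SiO2 and 7207 in PBS, 2.31-fold lower (-1.21), while its dimmer second probe gave -0.73. C4b, the partner of C2 in that convertase, had 4414 in SiO2 and 11660 in PBS, with a difference of -0.89. Among the genes above background on both arrays, C2 had the lowest difference. C1ra and C4b each have a closely related neighbouring copy in the mouse genome, so part of their signal may come from the copy.

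On the lectin side, the values split between bright genes that were lower and dim genes near background. Fcna, a ficolin of tissue macrophages that recognises sugars, had a signal of 1072 in SiO2 and 2726 in PBS, a difference of -0.83. Colec12, a membrane-bound scavenger collectin, had 975 in SiO2 and 1739 in PBS, a difference of -0.32. Masp2, the lectin pathway protease, was dim, with 13.6 in SiO2 and 16.3 in PBS (0.25), and its 3 probes disagreed, ranging from -1.06 to 0.55, the lowest of them not above background in SiO2. Masp1, a related protease, was not above background, with 5.28 in SiO2 and 4.14 in PBS.

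Macrophage markers were also mostly lower in SiO2, and their part in the values of C1q, C4b, Fcna and properdin was not tested. The general macrophage markers (8 measured of 9 listed) had a median of -0.72, with 2 past 2-fold on the lower side and 0 on the higher, and their summed scaled level was 35.5 in SiO2 and 66.6 in PBS. Of these 8 markers, 7 were below 0 and Lyz2 was at 0.45. The brightest probes of Adgre1, Csf1r and Mpeg1 gave -0.94, -0.79 and -0.65. Another probe of each gave -0.30, -0.13 and -0.13, so the size of this median depends on the probe. The 7 red pulp macrophage markers had a median of -0.50, again with 2 past 2-fold lower and 0 higher, and summed levels of 48.9 in SiO2 and 73.3 in PBS. All 7 were below 0, from Slc40a1, the iron exporter, at -0.22 to Spic, the red pulp macrophage factor, at -1.49. The 5 marginal zone macrophage markers had a median of -0.41, 1 past 2-fold lower and 0 higher, and summed levels of 7.23 in SiO2 and 10.05 in PBS. They were split, with 3 below 0 and 2 above it, Cd209b at 0.66 and Cd209a at 0.20. The 1 past 2-fold, Siglec1, was at -1.52, but its second probe gave -0.94 and normexp background correction -0.77.

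Among the alternative pathway genes, 3 of 4 were lower in SiO2. C3, the hub on which all pathways converge, had a signal of 11577 in SiO2 and 27188 in PBS, and its 2 probes gave -0.72 and -0.68. Cfb, the protease of the alternative convertase, had 1516 in SiO2 and 5135 in PBS and was 2.37-fold lower (-1.25). Cfp, which encodes properdin, the protein that stabilises this convertase, had 4988 in SiO2 and 12522 in PBS (-0.82). The fourth gene, Cfd, the adipsin protease best known from fat cells, was barely above background, with 10.7 in SiO2 and 8.31 in PBS (0.87). Beside it, 2 of 6 measured adipocyte markers (7 listed) passed 2-fold higher and 0 lower, with summed levels of 4.33 in SiO2 and 1.88 in PBS. That order rests on Fabp4 (2.13), since without it the sums were 0.751 in SiO2 and 1.07 in PBS. Pparg was at -0.69, and the defining markers Adipoq and Plin1 had signals of 22.3 and 11.7 in SiO2 and 6.88 (not above background) and 11.3 in PBS. The part of the adipocyte markers in the Cfd value was not tested.

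Of the pore-forming terminal proteins, C6 had a signal of 31.0 in SiO2 and 93.4 in PBS, 2.12-fold lower (-1.08). C7 had 16.1 in SiO2 and 19.0 in PBS (0.28). Both are dim. Normexp background correction, run on the spots' median signal in place of the processed signal, adds 50 to every signal before scaling and so draws dim probes toward a common value above 0; with it C6 was at -0.20.

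Hepatocyte markers give the background for liver-type expression of these plasma proteins. Of 9 listed, 7 were measured and none differed 2-fold, with a median of -0.22 and summed levels of 30.0 in SiO2 and 42.9 in PBS. Of the 7, 4 were below 0 and 3 above it. The sums rest mainly on Apoa2 (signal 9014 in SiO2 and 14947 in PBS) and Trf (4753 in SiO2 and 13209 in PBS). Without Apoa2 they were 10.8 in SiO2 and 20.5 in PBS. The defining marker Alb had a signal of 32.8 in SiO2 and 61.1 in PBS, and Apoa1 and Ttr were not above background on either array. Mesothelial markers, of the cell layer that covers the organ, had a median of -3.66, in which 4 of 10 values are bounds, with 8 past 2-fold lower and 0 higher, and summed levels of 1.01 in SiO2 and 6.29 in PBS. Fibroblast and stroma markers went the other way, with a median of 1.32, 5 of 8 past 2-fold higher and 0 lower, and summed levels of 86.7 in SiO2 and 37.4 in PBS. The part of these cells in the complement values was not tested.

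Cd59a stood out among the regulators. It encodes a membrane-anchored protein that stops the complement pore from forming and is known for protecting red blood cells. Its signal was 614 in SiO2 and 196 in PBS, 4.47-fold higher after scaling (log2 difference 2.16), the highest difference of the 37 genes. With normexp it was at 1.86, and in the authors' deposited values, computed from the same 2 arrays, it was at 2.13. Cd59a has a close mouse paralog, Cd59b, and a probe may read both. All 7 erythroid markers were at least 2-fold higher in SiO2, with a median of 1.82 and summed levels of 96.6 in SiO2 and 25.4 in PBS. The part of erythroid cells in the Cd59a value was not tested.

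The other membrane regulators were level between the pools. Cd55, which breaks up convertases on the cell surface, had a signal of 2826 in SiO2 and 3995 in PBS, a scaled difference of 0.01. Cr1l, the rodent regulator Crry found on most cells, had 3238 in SiO2 and 4621 in PBS, with a scaled level of 2.79 in both pools. These differences were smaller than 0.31, the 95th percentile of the standard deviation among repeated spots, which 9 of the 37 genes did not exceed.

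Soluble regulators lay on both sides of 0 and within 2-fold. Serping1, which encodes the C1 inhibitor that also restrains the contact proteases of clotting, had a signal of 1405 in SiO2 and 3137 in PBS, with its 2 probes at -0.65 and -0.79. Clu, a chaperone that binds forming pores, had 19244 in SiO2 and 35695 in PBS (-0.38). Cfi, the protease that inactivates C3b and C4b, was near background, with 9.39 in SiO2 and 8.23 in PBS (0.70). Vtn, or vitronectin, was not above background, with 4.11 in SiO2 and 5.11 in PBS.

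The receptors for the cut fragments C3a and C5a were all within 2-fold. C5ar1, the receptor by which C5a draws in neutrophils, had a signal of 39.1 in SiO2 and 33.5 in PBS (0.74). C3ar1, the receptor for C3a, had 21.8 in SiO2 and 19.8 in PBS (0.65). C5ar2, the second C5a receptor, had 495 in SiO2 and 721 in PBS, with 2 probes at -0.03 and 0.02. C5ar1 and C3ar1 were dim on both arrays.

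Itgam, the alpha chain of complement receptor 3 on neutrophils and macrophages, had a signal of 959 in SiO2 and 911 in PBS, and all 3 of its probes were above 0, from 0.35 to 0.59. Vsig4, the complement receptor of resident tissue macrophages, was not above background in SiO2, with a signal of 3.29 there and 21.6 in PBS. Raised to the lowest value above background, it was at least 2.47-fold lower (-1.31), and in the authors' deposited values it was at -1.92, but with normexp it was at 0.04. Neutrophil markers had a median of 1.25, with 5 of 10 past 2-fold higher and 0 lower, and summed levels of 259.5 in SiO2 and 146 in PBS. Monocyte markers (4 measured of 5) had a median of -0.37, none past 2-fold, and summed levels of 16.0 in SiO2 and 13.2 in PBS; without Fn1, the brightest, the sums were 4.56 in SiO2 and 6.31 in PBS, and the other 3 markers were below 0. The granule genes Ngp and Ltf were at 3.13 and 2.96, whereas Cxcr2, a receptor of mature neutrophils, was at -0.80. The part of neutrophils and monocytes in the receptor values was not tested.

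**Figure D2:**
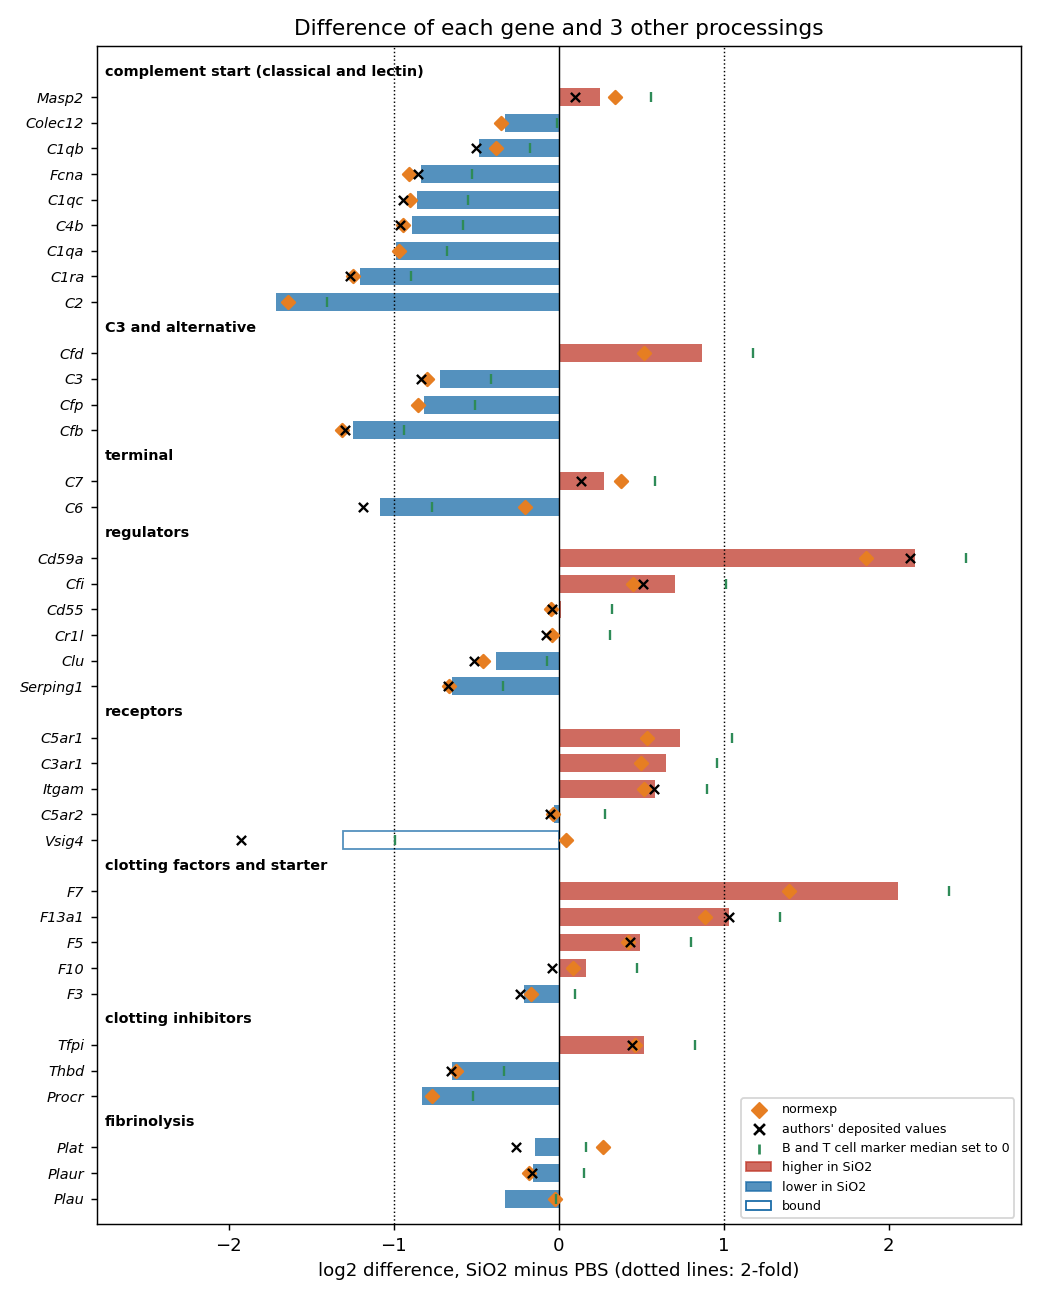
Log2 difference, SiO2 minus PBS, of each measured gene by role (bars; the open bar is the bound for Vsig4), with the same difference under normexp, with B and T cell markers set to a median of 0, and as computed from the authors' deposited values. Dotted lines mark 2-fold; C2, Cd59a and F7 stay beyond them in every processing drawn for them, while C6 and Vsig4 move close to 0 under normexp.

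F7 had the second highest difference. It encodes factor VII, which binds tissue factor to start clotting. Its brighter probe had a signal of 163 in SiO2 and 56.0 in PBS, 4.16-fold higher (2.06), and its second probe, with 77.8 in SiO2 and 31.7 in PBS, gave 1.81. With normexp the difference was 1.40. F3, tissue factor itself, had 264 in SiO2 and 435 in PBS, with 2 probes at -0.21 and -0.15, so factor VII and its cofactor did not shift together.

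Downstream, F13a1, the catalytic chain of the enzyme that cross-links fibrin and a product of macrophages and megakaryocytes, had a signal of 1145 in SiO2 and 799.7 in PBS. This made it 2.04-fold higher (1.03), with a second probe at 0.92, so it lies at the edge of the 2-fold rule. F5, the cofactor of factor X, had 160.0 in SiO2 and 162 in PBS, with 2 probes at 0.49 and 0.36. F10, the protease that turns prothrombin into thrombin, had 54013 in SiO2 and 68755 in PBS on its brighter probe (0.16) and 418 in SiO2 and 609.8 in PBS on the other (-0.03). The F10 probes therefore differed widely in brightness but both lay near 0. Megakaryocyte and platelet markers had none of 8 genes 2-fold higher or lower, with a median of -0.22 and summed levels of 27.3 in SiO2 and 33.1 in PBS.

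The inhibitors of clotting that sit on vessel walls were within 2-fold. Thbd, thrombomodulin, which redirects thrombin to activate protein C, had a signal of 747 in SiO2 and 1666 in PBS (-0.64). Procr, the endothelial receptor for protein C, had 566 in SiO2 and 1433 in PBS (-0.83). These partners of the protein C pathway were thus both lower. Tfpi, which blocks the tissue factor complex, had 5082 in SiO2 and 5059.5 in PBS on its brightest probe (0.52), but its 3 probes ranged from -0.17 to 0.52, so its direction depends on the probe. Of 8 endothelial markers, none differed 2-fold, with a median of -0.07 and summed levels of 13.8 in SiO2 and 17.8 in PBS. The 2 probes of the endothelial marker Kdr disagreed, at -0.90 and 0.32. The part of endothelial, mesothelial or other cells in the values of Thbd, Procr and Tfpi was not tested.

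Fibrinolysis genes lay between -0.33 and -0.14. Plat, the tissue-type plasminogen activator, had a signal of 24.6 in SiO2 and 38.9 in PBS (-0.14). Plau, the urokinase-type activator, had 55.9 in SiO2 and 99.998 in PBS (-0.33). Plaur, the urokinase receptor, had 535 in SiO2 and 851 in PBS (-0.16).

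Of the 23 genes below 0, most were bright. Of 7 genes with a mean signal over 5000, 5 were below 0, with a median of -0.72. The 1176 genes of that brightness had a median of 0.08, with 42.1% below 0. Of 15 genes between 500 and 5000, 12 were below 0, with a median of -0.64. The 5571 genes of that range had a median of -0.05, with 54.2% below 0. Of 8 genes under 50, 6 were above 0, with a median of 0.46, against 0.17 over 4592 genes, of which 37.9% were below 0. Dim genes as a whole therefore leaned to the higher side, and the positive values of Cfd, Cfi, C3ar1, C5ar1, C7 and Masp2 fall in that range.

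**Figure D3:**
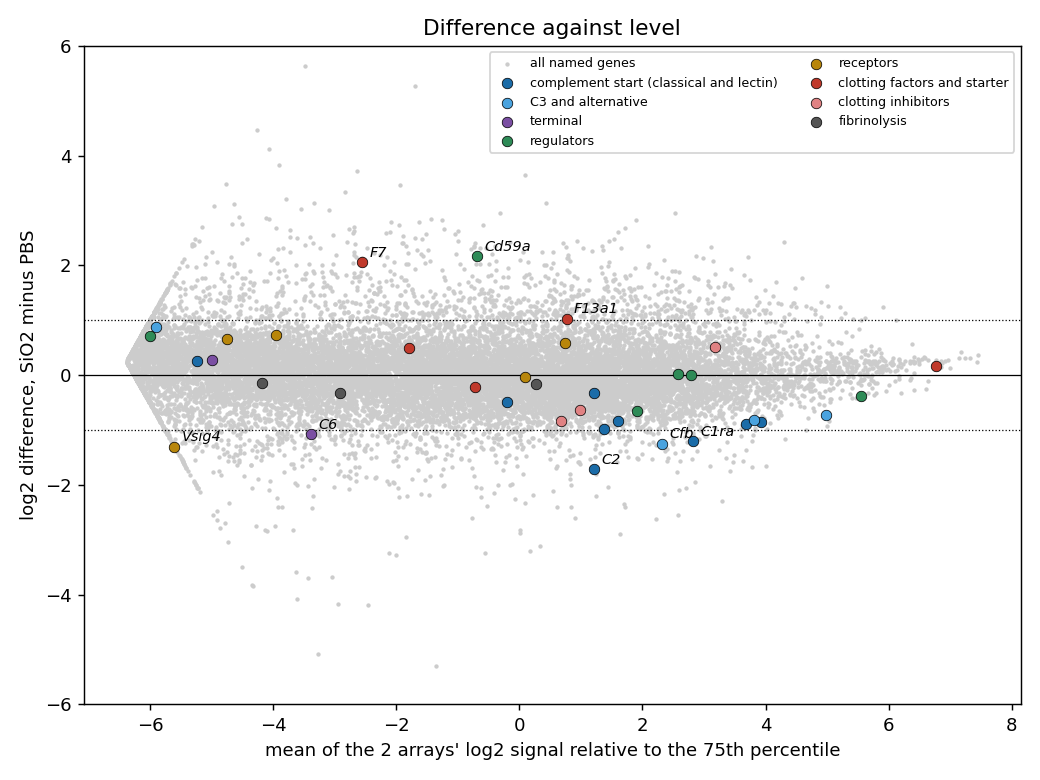
Log2 difference, SiO2 minus PBS, against the mean of both arrays' scaled log2 signal, with all 16774 named genes in grey and the 37 measured complement and coagulation genes coloured by role. Genes that differed at least 2-fold are named; 12 of 15 genes with a mean signal of 500 to 5000 and 5 of 7 above that lie below 0, and the wedge at the left comes from values raised to the lowest level above background.

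Beyond the 39 genes, 76 other genes of the same pathways were listed, of which 59 were measured. Of these, 4 were at least 2-fold higher in SiO2 (6.78%, against 6.62% of all genes) and none was lower, with a median of -0.02. In complement, Fcnb, the ficolin of myeloid cells, had a signal of 91.5 in SiO2 and 23.0 in PBS, 5.68-fold higher (2.50). Cd59b had 111 in SiO2 and 31.7 in PBS (2.32). The lectin Mbl2 had 12.7 in SiO2 and 8.59 in PBS, 2.11-fold higher. Its PBS value was not above background but lay over the lowest above-background signal, so it was not raised. In clotting, F11, the factor of the contact pathway, had 11.1 in SiO2 and 7.38 in PBS, 2.15-fold higher. Mbl2 and F11 were near background and at 0.58 and 0.56 with normexp, whereas Fcnb and Cd59b were at 1.34 and 1.38. The 24 other complement genes had a median of -0.04, which is unlike the -0.43 over the 26 measured complement genes of the main list, a difference that was not tested.

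**Figure D4:**
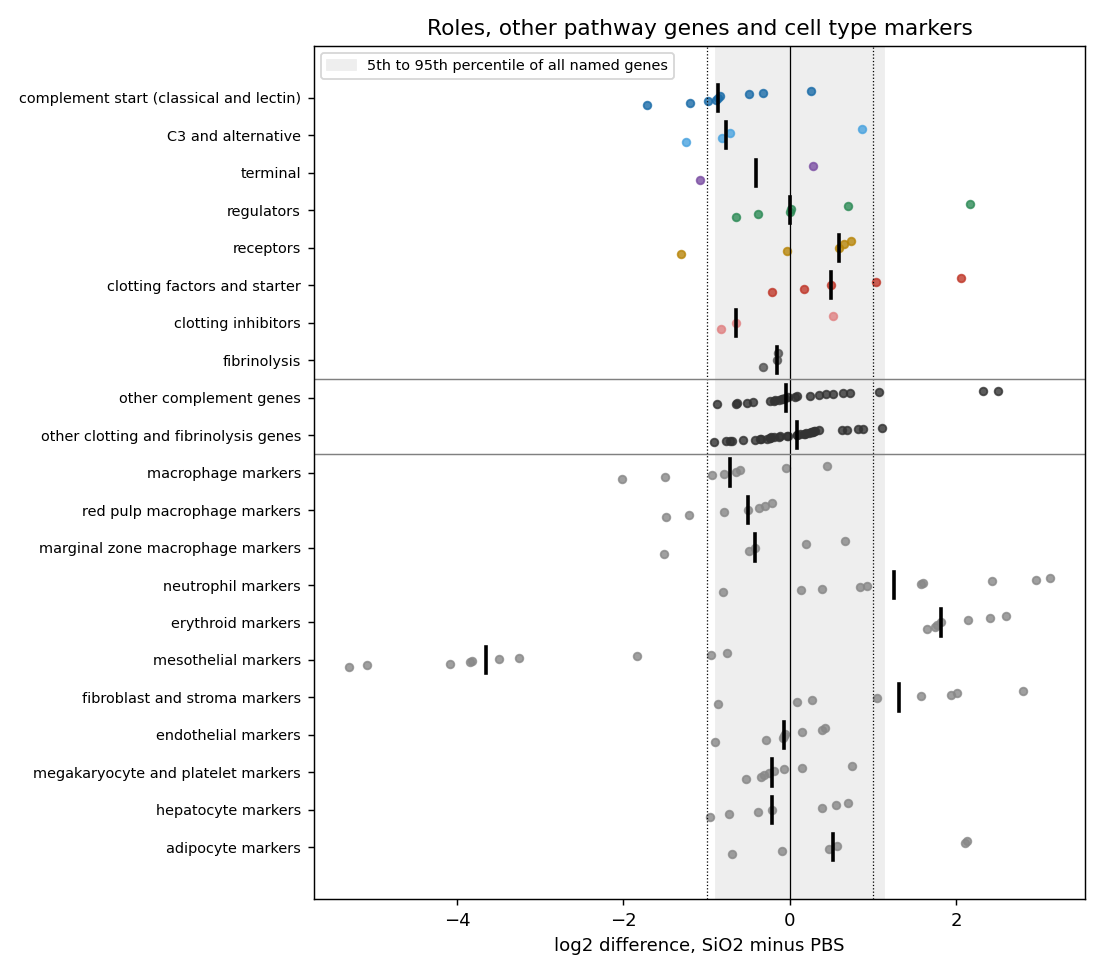
Log2 difference, SiO2 minus PBS, of the genes in each role, in the other pathway genes and in cell type marker lists (points), with the median of each list as a black bar and the 5th to 95th percentile of all named genes shaded. Each point is the brightest probe of a gene, and other probes of the macrophage markers Adgre1, Csf1r and Mpeg1 were less low. Medians of the complement start (-0.86) and of C3 with the alternative pathway (-0.77) lie near that of the general macrophage markers (-0.72). Both lie to the left of the red pulp (-0.50) and marginal zone (-0.41) macrophage medians. Neutrophil and erythroid markers lie to the right and mesothelial markers far to the left.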

How the data were processed

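Spleen RNA was hybridised to 2 one-colour Agilent arrays, 1 for each group. Per the file headers, the deposited intensity values came from Agilent Feature Extraction 11.0.1.1, and the processed intensity is background-subtracted; the submitters' processing notes name version 9.1. The authors' deposited log2 values cover 26049 probes and 27 members, with a median of 5.68 in both columns; their slope against the scanner log2 signal was 1.01 in SiO2 and 0.995 in PBS, so scale and sign are known, while the sources used here do not give their centring. Spots flagged as outliers were dropped (148 in SiO2, 145 in PBS), spots of a probe were averaged on the log2 scale, and each array was centred on its 75th percentile. Spots well above background made up 74.9% in SiO2 and 75.5% in PBS, and none was saturated. Probes were named through RefSeq (GRCm38.p6) accessions, which gave 27217 of 39398 probes a symbol. A gene is its brightest probe above background on at least 1 array. A value not above background was raised to the lowest above-background signal (6.14 in SiO2, 7.37 in PBS) if it lay under it. Among 321 probes with 10 spots each, the standard deviation of the difference had a median of 0.06, or 0.13 over the 107 dimmest; this covers spots only. No p-value was computed. At least 2-fold is a rule of size, and the scripts that apply it were tested on simulated data. That simulation planted changes well past 2-fold, left out the dimmer genes and had no value to raise. It therefore does not cover calls on dim genes or bounds. All 39 members are described, and other pathway genes are named where they differed at least 2-fold. Some within 2-fold are also named under other observations, picked after their values were seen. Members and lists were chosen with earlier results of these data known. R 4.3.3, limma 3.58.1 and Python 3.11.15 were used.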

Additional observations from a re-analysis of the deposited data

How the results depend on the processing

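With 1 array a group, no replicate could be left out, and the number of arrays limits all values. No paired analysis was possible because each group had 1 array. A median was taken as moved when it changed by over 0.31, the 95th percentile over single probes of the standard deviation of the difference among spots. Quantile normalization, cyclic loess and a percentile over probes above background on both arrays kept all 8 genes past 2-fold, and the authors' deposited values all 6 they list. Averaging probes brought C1ra and F13a1 within 2-fold. The median of all genes was 0.03, and 0.18 under normexp and 0.34 with the B and T cell markers set to 0, which adds 0.31 to every difference and so moves every median past that limit by construction. Over all genes, 1110 passed 2-fold on the higher side and 619 on the lower, against 655 and 259 under normexp, 2090 and 301 with the B and T cell markers set to 0, and 700 and 572 in the authors' deposited values, which hold 12132 genes.

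The normexp setting changed the signal column (spot median in place of processed signal) together with the background method, and its offset draws dim probes toward a common value above 0. Under it, C6, Vsig4 and F13a1 no longer passed 2-fold, 3 members were at least 2-fold lower in place of 5, the terminal median was 0.088, Vsig4 was at 0.042, and other pathway genes at least 2-fold higher numbered 2 in place of 4. With the B and T cell markers set to 0, 6 members were at least 2-fold higher (in place of 3) and 1, C2, lower. The median over members was then 0.10, and by role -0.55 for the complement start, -0.46 for C3 and the alternative pathway, -0.092 for terminal genes, 0.32 for regulators, 0.90 for receptors, 0.81 for clotting factors, -0.33 for clotting inhibitors and 0.15 for fibrinolysis; other pathway genes had 7 higher and a median of 0.29. In the authors' deposited values, which list 27 members, the medians of receptors and clotting inhibitors were -0.053 and -0.10, over fewer genes. There, and after quantile normalization and cyclic loess, 2 other pathway genes were higher and 1 lower. Of 37 members, 34 kept their sign under normexp and 32 with the B and T cell markers set to 0. The cause of each change was not tested beyond these constructions.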

Other observations

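Related genes of these pathways were set side by side after their values were seen. The ficolins differed in opposite directions, with Fcnb at 2.50 and Fcna at -0.83 on the log2 scale, SiO2 minus PBS. Both CD59 genes were higher, Cd59b at 2.32 and Cd59a at 2.16, and both lay past 2-fold under normexp. Each rests on 1 probe, which may read both genes, so the values of Cd59a and Cd59b may not be separate. The C1s proteases were closer to 0 than C1ra, with C1s1 at -0.18 and C1s2 at -0.45, although the probes of C1s2 ranged from -0.45 to 0.19.

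Integrin chains of the complement receptors also parted. Itgam was at 0.59, the alpha chain Itgax of complement receptor 4 at -0.64, and their shared beta chain Itgb2 at -0.10. Cr2, complement receptor 2 of B cells and follicular dendritic cells, was at -0.88, with a second probe at -0.73, while the B cell markers, all 6 below 0, had a median of -0.48. Of the thrombin receptors, F2r was at -0.69. The dim F2rl2 was at -0.24, and the dim F2rl3 at -0.35 with a second probe at 0.20. These values were not tested.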
